A study of Zea mays with 2 samples.

Results

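Hi-C joins and sequences pieces of DNA that lie close together in the nucleus, so that a pair of distant regions in frequent contact appears as a focal peak in the contact map, called a loop, with an anchor at each end. Most anchors take part in few loops, and an anchor that shares loops with many partners is called a hub here. In plants, which lack the insulator protein CTCF that marks most mammalian loop anchors, loops have often been described between genes, regulatory elements and domain edges. Domains are stretches of chromosome that contact themselves more than their surroundings, and they can be nested, with the outermost class called level 0.

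The hub anchors described here were the distinct 10-kb anchors of replicate 2 that belonged to 5 or more loops and had partners both upstream (at lower coordinates) and downstream (at higher coordinates). There were 956 of them among 27344 distinct anchors of chromosomes 1 to 10, or 3.5% (95% Wilson interval 3.28 to 3.72). The series held 2 Hi-C replicates of maize leaf, from the inbred line B73 at developmental stage v04, each from 4 greenhouse plants, with no treatment and no other genotype. Leaf tissue holds several cell types, so each loop list is a mixture of the loops of all its cells. Loops and domains had been called in each replicate alone, and coordinates are those of B73 AGPv4.

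Replicate 2 listed 25628 loops on chromosomes 1 to 10 and 1006093 contacts in them, and replicate 1 listed 16863 loops and 440232 contacts. All loops of replicate 2 had 10-kb anchors, whereas replicate 1 had anchors of 5, 10 and 25 kb and was called with another version of the caller. Both the number of loops and the anchor size therefore differed between the replicates, and their part in any loop missing from replicate 1 was not tested. Of the 3161 loops with identical anchors in both lists, 15 had the same count of contacts, so the lists were not copies of each other.

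Because members were chosen by the number and direction of their replicate 2 loops, those values are a description and carry no test. Of the hub anchors, 651 had 5 loops, 221 had 6, 61 had 7, 18 had 8 and 5 had 9. More partners lay upstream at 436 hub anchors (45.6%) and downstream at 431 (45.1%), and the remaining 89 had equal numbers. The commonest arrangements were 2 upstream with 3 downstream partners (245 hub anchors) and 3 upstream with 2 downstream (233 hub anchors). At 207 hub anchors (21.7%), 1 side held a single partner. Partners lay on both sides at 42.8% of anchors of 2 loops, 70.5% of 3, 87.5% of 4 and 96.3% of 5 or more. An anchor with more partners has more chances to have them on both sides, so the high last share is in part set by the number of loops. The remaining 37 anchors of 5 or more loops had all their partners on 1 side.

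**Figure D1:**
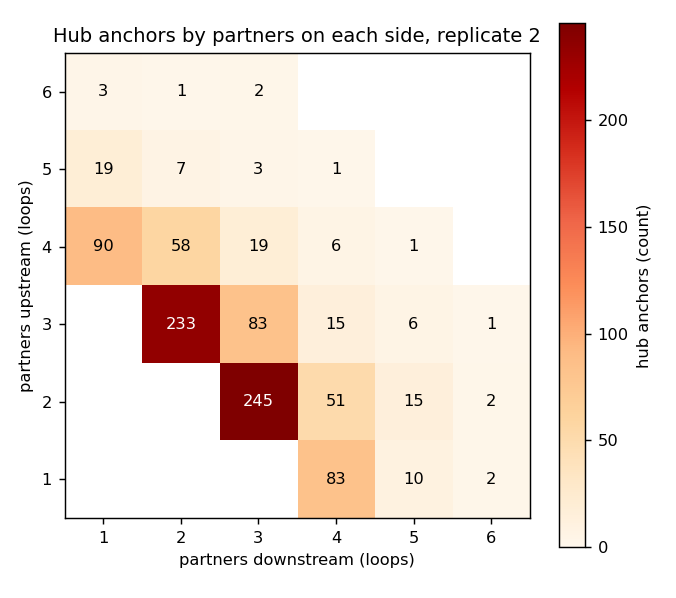
Number of hub anchors for each combination of downstream partners (horizontal axis, loops) and upstream partners (vertical axis, loops) in replicate 2. The 2 largest cells hold 245 and 233 hub anchors, and the counts are similar on either side of the diagonal.

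The threshold cut through a continuous distribution. Just inside it, the 651 hub anchors of 5 loops had a median of 182 summed contacts (quartiles 154 and 222). Just outside, the 1491 anchors of 4 loops with partners on both sides had a median of 148 (quartiles 122 and 182), and the 37 anchors of 5 or more loops with partners on 1 side also had a median of 182 (quartiles 135 and 210). Hub anchors took part in 4782 loops, or 18.7% of all loops, and in 182056 of the contacts counted in loops, or 18.1%.

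The 5 hub anchors with the most loops had 9 each. The one with the most contacts among them, chr3:173420001-173430000, had 4 upstream partners at 70, 240, 290 and 680 kb, with 37, 21, 23 and 11 contacts. Its 5 downstream partners lay at 40, 100, 130, 260 and 370 kb, with 99, 99, 40, 49 and 20 contacts. Contacts were thus concentrated downstream, and the partners at 100 and 260 kb were themselves hub anchors. Those were also the loops of this anchor that replicate 1 listed, with 47 and 21 contacts, so that replicate 1 held no loop to its upstream side.

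At chr6:87480001-87490000 loops were found in replicate 1 on both sides. The 5 upstream partners lay at 60, 100, 290, 430 and 530 kb and had 34, 104, 44, 20 and 16 contacts. The 4 downstream partners lay at 110, 160, 470 and 670 kb and had 59, 30, 13 and 13 contacts. The loops present in replicate 1 were those with the highest contacts of all 9 (104, 59 and 44 in replicate 2), with 113, 82 and 33 contacts in replicate 1. This anchor lay at a level 0 boundary in the replicate 1 domain list and 125 kb from the nearest one in the replicate 2 list.

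The hub anchor chr7:85210001-85220000 reached farther to one side. It had 3 upstream partners at 180, 280 and 1040 kb (46, 28 and 11 contacts) and 6 downstream partners between 70 and 400 kb (21 to 71 contacts). Replicate 1 held 4 of its 9 loops, 1 upstream and 3 downstream, with 17 to 27 contacts. The hub anchor chr1:45170001-45180000 had 6 upstream partners at 60 to 450 kb (16 to 89 contacts) and 3 downstream partners at 50, 80 and 270 kb (56, 63 and 23 contacts). Replicate 1 held 1 of these loops, which joined it to another hub anchor 160 kb upstream with 33 contacts in replicate 2 and 16 in replicate 1.

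Among all hub anchors, chr3:22420001-22430000 had the most loops to other hub anchors. Of its 9 partners, 5 were hub anchors, which lay 40, 150 and 380 kb upstream and 50 and 120 kb downstream. The downstream pair carried 86 and 47 contacts and was found in replicate 1, with 16 and 58 contacts, whereas none of the 6 upstream loops was. At each of these 5 hub anchors the loop with the most contacts ran to a partner 40 to 240 kb away, and the farthest partners had the fewest contacts or nearly so.

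**Figure D2:**
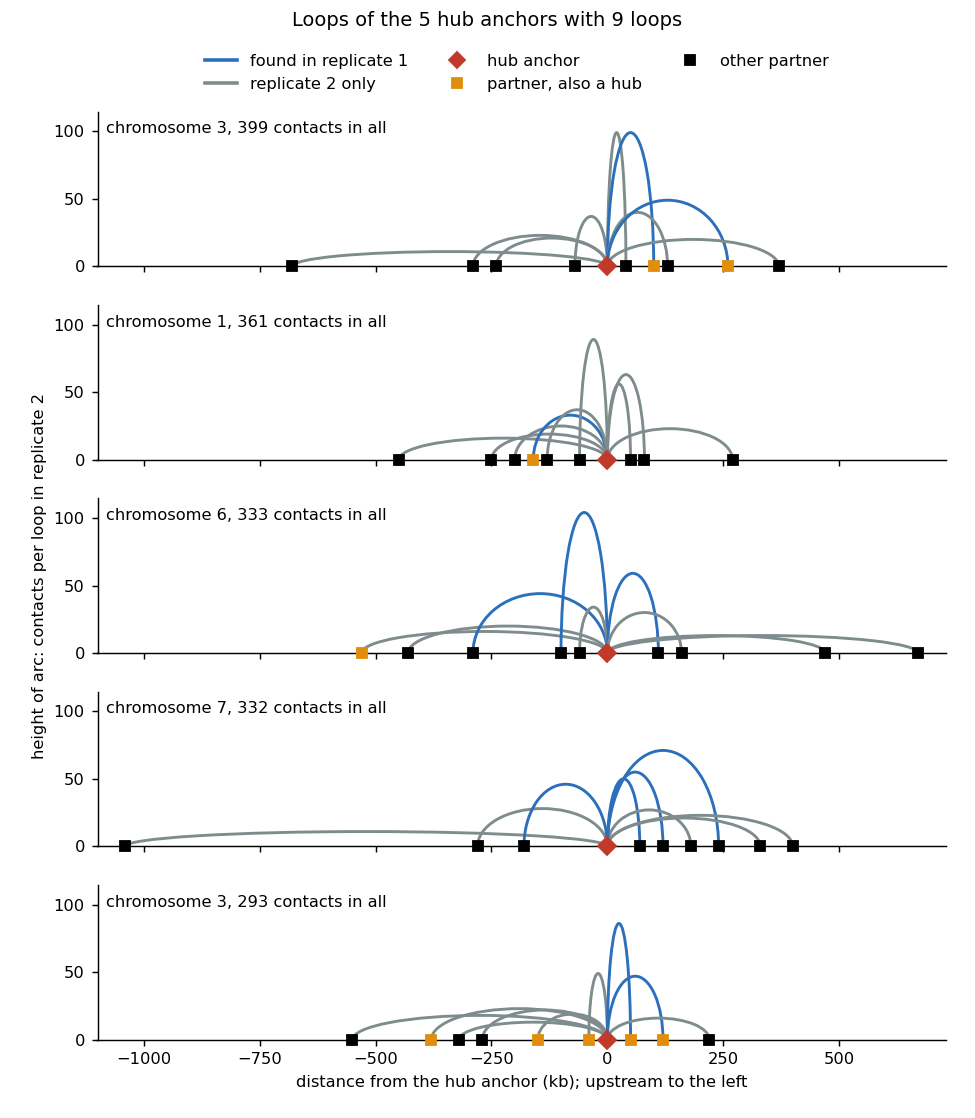
Loops of the 5 hub anchors with 9 loops, as arcs from the hub anchor (diamond at 0) to each partner (square), with the distance in kb on the horizontal axis and the contacts in replicate 2 as the height of the arc. Blue arcs were also listed in replicate 1, where between 1 and 4 of the 9 loops of each anchor were found, and orange partners are themselves hub anchors. Panels run in order of summed contacts, from chr3:173420001-173430000 at the top to chr3:22420001-22430000 at the bottom.

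The leading hub anchors of the other chromosomes had 7 or 8 loops. On chromosome 5, chr5:206100001-206110000 had the highest sum of contacts of all hub anchors, 428 over 7 loops, of which the loop to a hub anchor 90 kb downstream had 129 contacts. On chromosome 9, chr9:116430001-116440000 had 371 contacts over 8 loops, and 4 of them were found in replicate 1, including the loop of 141 contacts to a hub anchor 110 kb downstream. Chromosome 4 was led by chr4:183710001-183720000 (296 contacts over 8 loops), and chromosome 10 by chr10:76080001-76090000 (391 contacts over 7 loops, 158 of them to a partner 80 kb upstream). Chromosome 8 was led by chr8:152160001-152170000, where 1 of 8 loops was found in replicate 1.

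Other leading hub anchors showed how unevenly a hub could recur. At chr2:213750001-213760000, the leading hub anchor of chromosome 2, none of the 8 loops was found, although 2 replicate 1 loops ended on the same anchor, both running downstream. The hub anchor chr3:36890001-36900000 had 276 contacts upstream over 6 loops and 43 downstream over 2 loops, and its strongest loop, of 170 contacts to a partner 70 kb upstream, was not in the replicate 1 list. The remaining hub anchors among the 10 with the most loops, chr9:96320001-96330000, chr1:280900001-280910000 and chr1:229500001-229510000, had 8 loops each, of which 2, 3 and 4 were found in replicate 1.

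Across all hub anchors, upstream and downstream loops were alike in replicate 2. The 2617 upstream loop ends spanned a median of 170 kb (quartiles 100 and 290) and the 2580 downstream ends also 170 kb (quartiles 100 and 290). Median contacts were 30 upstream and 29 downstream, and the median share of a hub anchor's contacts that lay upstream was 50.7% (quartiles 36.5 and 64.7). Single hub anchors were less even than this median, since the longer of the 2 reaches was a median of 1.70 times the shorter (quartiles 1.30 and 2.75).

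Over the first 4 partners on a side, contacts fell and enrichment over background grew with each step outward. On the upstream side, the nearest partner lay at a median of 80 kb with 47 contacts, the next at 180 kb with 28, the one after at 280 kb with 21, and the fourth at 400 kb with 17. On the downstream side, the same 4 positions lay at 80, 180, 280 and 380 kb with 46, 27, 21 and 18 contacts. The ratio of contacts over the expectation of a donut-shaped background was 4.56, 5.0, 5.35 and 5.71 for the 4 upstream positions and 4.55, 5.10, 5.36 and 5.88 for the 4 downstream ones. Beyond them, the 36 upstream and 37 downstream partners in the fifth place had medians of 17 and 18 contacts and ratios of 5.69 and 6.02, with no further fall in contacts. Each place outward rests on fewer hub anchors (956 upstream for the nearest, 210 for the fourth), so the medians do not follow the same anchors. No hub loop had fewer than 10 contacts, which limits how far these medians can fall. Within a hub anchor, the strongest loop had a median of 4.12 times the contacts of the weakest.

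From the farthest upstream to the farthest downstream partner, hub anchors covered a median of 580 kb (quartiles 450 and 772). The shortest coverage, 210 kb, was that of chr8:18950001-18960000, with 5 partners at 40 to 110 kb on either side and 25 to 72 contacts. The longest, 15510 kb, was that of chr1:283400001-283410000 and rested on a single loop of 15170 kb, with 12 contacts and an observed-to-expected ratio of 115. Its other 4 loops spanned 160 to 340 kb, and the long loop was not in the replicate 1 list.

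Hub loops were longer than the loops without a hub anchor. This follows in part from the rule, since further partners on a side lie farther out. Hub loops spanned a median of 170 kb (quartiles 100 and 280), against 110 kb (quartiles 60 and 200) for the 20846 loops without a hub anchor, and 6.15% against 2.98% exceeded 500 kb. The median was 140 kb for loops of anchors of 4 loops on both sides, without a hub anchor. It was 220 kb for loops of anchors of 5 or more loops with partners on 1 side. The median count of contacts was 30 in hub loops and 33 in loops without a hub anchor. Within classes of length, hub loops had the higher median below 200 kb, with 52 against 44 contacts under 100 kb and 34 against 31 from 100 to under 200 kb. From 200 to under 400 kb both medians were 22, and at 400 kb or more they were 16 and 17. The ratio over the donut background was higher in hub loops in every class, with medians of 4.14 against 3.72 under 100 kb and 6.09 against 5.88 at 400 kb or more. All of these lengths and contact values come from the replicate that chose the members.

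Some partners of a hub anchor were joined to each other. Of 11790 pairs of partners of the same hub anchor, 2484 (21.1%) were themselves ends of a loop, and 860 hub anchors had at least 1 such pair. At anchors with partners on both sides, the share of joined pairs was higher with fewer loops, at 24.4% for 4 loops, 27.1% for 3 and 29.1% for 2. Pairs on the same side of the hub anchor were joined in 33.1% of cases (95% Wilson interval 31.8 to 34.3), and pairs across it in 10.8% (10 to 11.5). Pairs across the hub anchor lay farther apart, at a median of 370 kb against 140 kb. At matched distance the difference stayed in the same direction, with 12.7% (11.4 to 14.0) of pairs across and 24.9% (22.6 to 27.2) of pairs on the same side joined at 200 to under 400 kb.

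The share of joined pairs across an anchor also differed between hub anchors and anchors with fewer loops on both sides. At 200 to under 400 kb it was 12.7% for hub anchors, against 17.5% (16.0 to 19.1) for anchors of 4 loops, 22.4% (20.8 to 24.2) for those of 3 and 26.8% (24.3 to 29.4) for those of 2. Pairs on the same side were joined at this distance in 24.9% (22.6 to 27.2) of cases for hub anchors, 27.1% (24.0 to 30.4) for anchors of 4 loops and 31.2% (26.7 to 36.1) for those of 3. The share on the same side was thus also lower with more loops, but it changed less than the share across. Pairs share partners and loops, so these intervals are too narrow, and the number of pairs per anchor rises with its loops by construction.

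Some hub anchors were partners of one another. Loops joining 2 hub anchors numbered 415, or 8.68% of hub loops, and 527 hub anchors (55.1%) had at least 1. Over all 27344 anchors, 4359 had a loop to a hub anchor, and 3832 of the 26388 other anchors did. An anchor of 5 or more loops has more chances to reach a hub anchor, so these counts do not show a preference of hub anchors for one another. Loops joining 2 hub anchors spanned a median of 220 kb (quartiles 140 and 360). They had the highest median ratio over background, 5.72, against 5.0 over all hub loops. Linked in this way, 125 pairs, 45 groups of 3, 15 of 4, 11 of 5, 1 of 6 and 3 of 7 hub anchors were formed, and 429 hub anchors stood alone.

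The 3 groups of 7 lay on chromosomes 1, 4 and 9. On chromosome 4, 7 hub anchors from 183.23 to 184.36 Mb were tied by 10 loops within 1130 kb, and each of them had 2 to 4 loops found in replicate 1. On chromosome 9, 7 hub anchors from 115.64 to 116.75 Mb were tied by 10 loops within 1110 kb. On chromosome 1, the group ran as a longer chain, with 7 loops over 1720 kb from 71.52 to 73.24 Mb. The leading hub anchors of chromosomes 4 and 9 belonged to these groups.

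Hub anchors occurred on every chromosome. They numbered 161 on chromosome 1, 103 on chromosome 2, 117 on chromosome 3, 93 on chromosome 4, 113 on chromosome 5, 67 on chromosome 6, 65 on chromosome 7, 87 on chromosome 8, 83 on chromosome 9 and 67 on chromosome 10. As a share of anchors they ranged between 2.88% on chromosome 7 and 3.89% on chromosome 9. Neighbouring hub anchors lay a median of 905 kb apart.

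The longest stretch between neighbouring hub anchors was 17.6 Mb on chromosome 8, the shortest of these stretches, and 38.0 Mb on chromosome 3, the longest. On chromosome 3 it ran from 67.92 to 105.96 Mb and held 189 anchors, or 4.97 per Mb, against 13.2 per Mb over the whole chromosome. Over all 10 chromosomes the density in these stretches was between 3.18 and 7.07 anchors per Mb, so that anchors of any kind were sparse there too. In 5 steps of 10% of chromosome length from the nearest end inward, there were 4.77, 5.77, 5.58, 3.58 and 2.99 hub anchors per 10 Mb. As a share of the anchors in the same steps, they were 2.72%, 3.78%, 4.40%, 3.5% and 3.25%, so that the ends were rich in anchors but not in hub anchors among them.

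Counts of anchors and loop ends around hub anchors were slightly higher than around all other anchors. Within 500 kb there was a median of 16 other anchors of replicate 2 around hub anchors and 15 around all other anchors, and a median of 20 against 18 replicate 1 loop ends that did not lie on the anchor itself. The quartiles of the last measure, 15 to 26 and 12 to 24, overlapped widely. The first count includes a hub anchor's own partners and the second the far ends of its own replicate 1 loops. The differences are thus in part set by the rule. Anchors of 4 loops with partners on both sides had medians of 16 and 20. Anchors of 5 or more loops with partners on 1 side had 18 and 26, so the higher counts were not particular to hub anchors. Another anchor directly touched 197 hub anchors (20.6%, 38.5% over all anchors), against 39.2% of all other anchors.

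Replicate 1, which the rule did not use, was then set against the same positions. A replicate 1 anchor overlapped 920 of the 956 hub anchors, or 96.2% (94.8 to 97.3), against 64.2% of all other anchors and 65.3% over all anchors. The share grew with the number of replicate 2 loops, with 50.5% at anchors of 1 loop, 73.2% of 2, 86.6% of 3, 89.8% of 4, 94.8% at hub anchors of 5, 99.1% of 6 and 61 of 61 at hub anchors of 7. Of the 37 anchors of 5 or more loops with partners on 1 side, 36 (97.3%) were overlapped, so this high share went with many loops and was not particular to hub anchors.

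Loops in both directions recurred less often than the anchors did. In replicate 1, 550 hub anchors (57.5%, 54.4 to 60.6) had at least 1 loop to each side, against 16.2% of all other anchors and 17.6% over all anchors. The share was 44.9% at anchors of 4 loops with partners on both sides, and 10 of 37 (27.0%) at anchors of 5 or more loops with partners on 1 side in replicate 2. An anchor needs at least 2 replicate 1 loops to have both directions, and 740 hub anchors (77.4%, 29.3% over all anchors) had them, against 27.5% of all other anchors. They were also present at 62.1% of anchors of 4 loops with partners on both sides, and at 30 of 37 (81.1%) with 5 or more loops on 1 side. Among anchors with 2 or more replicate 1 loops, both directions were present at 74.3% of hub anchors (71.1 to 77.3), 72.2% (69.3 to 75) of the anchors of 4 loops on both sides and 58.7% (57.6 to 59.9) of all other anchors, with 60.2% over all such anchors. Hub anchors and anchors of 4 loops on both sides thus had overlapping intervals on this measure.

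The full number of loops rarely recurred. Hub anchors had a median of 2 replicate 1 loops (quartiles 2 and 3, highest 7), and 923 of them had fewer loops in replicate 1 than in replicate 2. At least 5 loops in both directions were listed in replicate 1 at 64 hub anchors (6.69%, 0.578% over all anchors), against 0.356% of all other anchors. The most replicate 1 loops, 7 each, were at chr3:201240001-201250000 and chr1:29510001-29520000, with 3 upstream. A further 13 hub anchors had 6, of which chr5:62830001-62840000 had the most contacts in replicate 2. These 3 had 6, 5 and 6 loops in replicate 2. Of their replicate 2 loops, 5, 5 and 4 were found in replicate 1, and chr1:29510001-29520000 kept all of its loops, with 15 to 42 contacts each in replicate 1.

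At the other end, 36 hub anchors had no replicate 1 anchor on them. Of these, chr3:227280001-227290000 and chr4:35620001-35630000 had 6 loops and the other 34 had 5, among which chr3:168520001-168530000 had the most contacts. The first had 224 contacts, of which 111 belonged to the loop to a partner 40 kb downstream, and its other loops had 18 to 26. The second had 147 contacts over its 6 loops, none above 38. The third had 247 contacts, 114 of them in a loop of 40 kb.

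**Figure D3:**
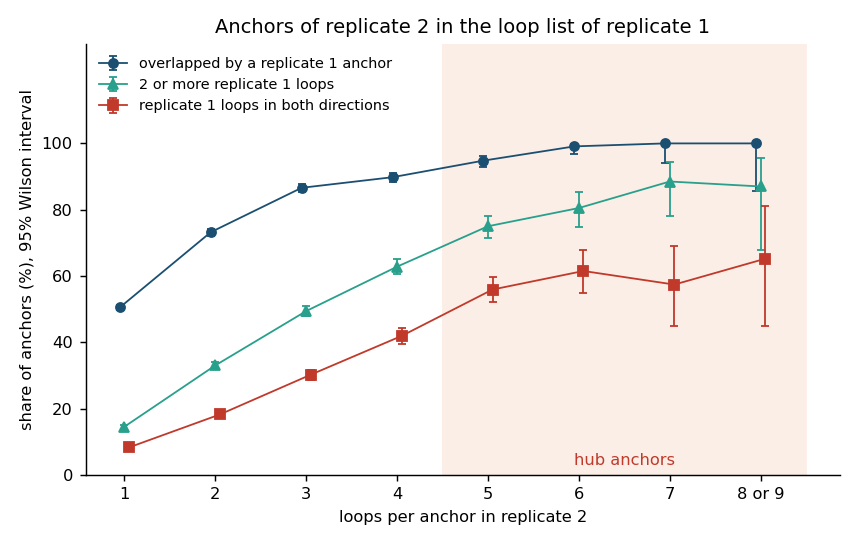
Share of replicate 2 anchors (vertical axis, percent, bars are 95% Wilson intervals) that a replicate 1 anchor overlapped, that had 2 or more replicate 1 loops, and that had replicate 1 loops in both directions, by their number of replicate 2 loops (horizontal axis). The shaded classes are hub anchors, and overlap and both directions stood at 96.2% and 57.5% over all hub anchors.

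Single loops of hub anchors were found in replicate 1 little more often than other loops. Of 4782 hub loops, 1557 were found, or 32.6% (31.2 to 33.9), against 29.8% (29.2 to 30.5) of loops without a hub anchor and 30.3% over all loops. Loops joining 2 hub anchors were found at 37.3% (32.8 to 42.1). At least 1 loop was found for 858 hub anchors (89.7%), at least 1 on each side for 384 (40.2%), and all of them for 6 (0.628%). The number of loops of an anchor bears on each of these counts, and they were not taken for other anchors. They therefore do not show that hub anchors recur more often than others.

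The small difference over all loops hid differences by length and strength. Under 100 kb, 40.4% (37.6 to 43.2) of hub loops were found, against 29.2% (28.3 to 30.1) of loops without a hub anchor. From 100 to under 200 kb the shares were 37.4% and 32.8%. From 200 to under 400 kb they were 26.4% (24.2 to 28.7) and 28.7% (27.4 to 30.1), and at 400 kb or more 18.7% (15.8 to 22.1) and 22.6% (20.4 to 25.1), with overlapping intervals in both classes. The higher share of hub loops was thus seen below 200 kb, where they also had more contacts than other loops, and the part of contacts in it was not tested. Under 100 kb, loops of anchors of 4 loops on both sides, without a hub anchor, stood at 35.0% (32.7 to 37.4). Loops of anchors of 5 or more loops with partners on 1 side stood at 64.5% (46.9 to 78.9, 31 loops). The higher share of short loops was thus not particular to hub anchors.

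By strength, recurrence rose steeply for hub loops, with 9.10% found below 20 contacts, 21.9% at 20 to 29, 35.8% at 30 to 49 and 64.5% (61.6 to 67.3) at 50 or more. Loops without a hub anchor gave 9.92%, 19.5%, 30.2% and 54.0% (52.6 to 55.4) in the same classes. The shares were close below 30 contacts and apart above. The nearest upstream and downstream partners were found in 44.4% and 43.1% of cases, and the third in 22.3% and 20.6%. Hub loops that were found had a median of 46 contacts in replicate 2 and 21 in replicate 1, where the size of the counted pixel varied with the anchor.

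Domain lists were called by another program, separately from the reads of each replicate. A level 0 boundary lay within 2 kb of 327 hub anchors in the replicate 1 list (34.2%, 31.3 to 37.3), against 19.1% of all other anchors and 19.6% over all anchors. In the replicate 2 list it was 332 hub anchors (34.7%, 31.8 to 37.8), against 20.5% of all other anchors and 21.0% over all anchors. The mean of the lists was 34.5% ± 0.370 (SD, n = 2) for hub anchors. Both lists placed a boundary at 203 hub anchors (21.2%, 11.2% over all anchors), against 10.8% of all other anchors, and neither list did at 52.3% (70.6% over all anchors), against 71.3%. Both lists did so at 14.6% (12.9 to 16.5) of anchors of 4 loops on both sides. For anchors of 5 or more loops with partners on 1 side it was 10 of 37 (27.0%, 15.4 to 43.0).

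Boundary shares were higher at hub anchors than at anchors of fewer loops, with no steady order among hub anchors. In the replicate 1 list, 15.5% of anchors of 1 loop, 21.7% of 2, 24.8% of 3 and 25% of 4 lay at a level 0 boundary, and 35.0%, 31.2%, 29.5% and 52.2% of hub anchors of 5, 6, 7, and 8 or 9 loops. In the replicate 2 list, anchors of 1, 2, 3 and 4 loops gave 16.7%, 22.8%, 26.7% and 28.2% (26.1 to 30.4). The same classes of hub anchors gave 32.6% (29.1 to 36.3), 38.5%, 42.6% and 39.1%. Intervals of anchors of 4 loops and hub anchors of 5 thus overlapped in this list. The last class held 23 hub anchors, with intervals of 33.0 to 70.8% and 22.2 to 59.2% in the replicate 1 and replicate 2 lists. Anchors of 5 or more loops with partners on 1 side were at a boundary in 43.2% of cases in either list, with 37 anchors. Boundaries of any level, sub-domains included, lay at 59.3% and 58.6% of hub anchors in the replicate 1 and replicate 2 lists (32.6% and 34.7% over all anchors), against 31.6% and 33.8% of all other anchors. Both lists placed such a boundary at 43.3% of hub anchors (21.6% over all anchors), against 20.8% of all other anchors, and neither list did at 25.4% (54.3% over all anchors), against 55.4%. Both lists did so at 32.7% (30.3 to 35.1) of anchors of 4 loops on both sides. At anchors of 5 or more loops with partners on 1 side it was 37.8% (24.1 to 53.9), so the higher shares were not particular to hub anchors. The middle of the anchor lay inside a sub-domain at 67.1% and 69.0% of hub anchors (63.3% and 65.6% over all anchors), against 63.2% and 65.5% of all other anchors.

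**Figure D4:**
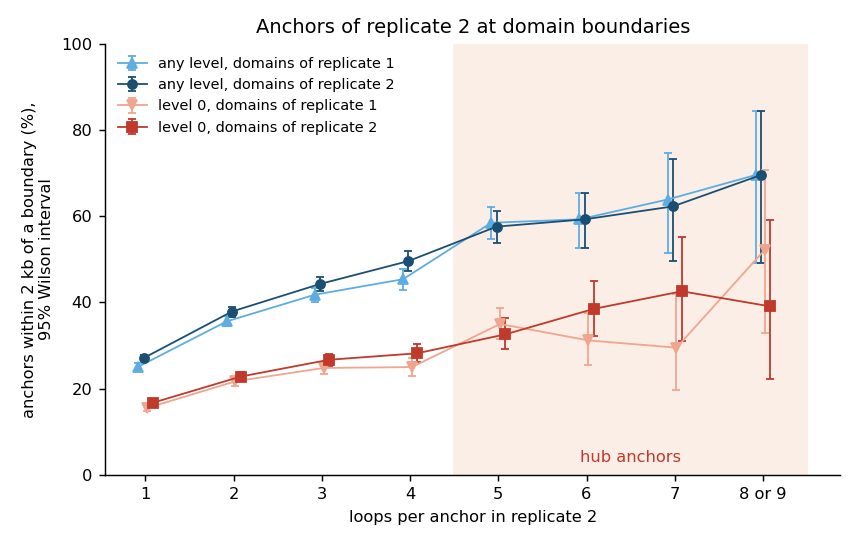
Share of replicate 2 anchors within 2 kb of a domain boundary (vertical axis, percent, bars are 95% Wilson intervals) by their number of replicate 2 loops (horizontal axis), for level 0 boundaries and boundaries of any level in both domain lists. The shaded classes are hub anchors, which stood at 34.2% and 34.7% for level 0 and 59.3% and 58.6% for any level.

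Not every leading hub anchor followed this pattern. Of the 5 hub anchors with 9 loops, none was at a level 0 boundary in both lists, 4 were in 1 list, and chr3:173420001-173430000 lay 245 and 305 kb from the nearest boundary in the replicate 1 and replicate 2 lists. At a boundary in both lists, no hub anchor had 9 loops and 7 had 8, of which chr9:96320001-96330000, chr3:36890001-36900000 and chr3:192830001-192840000 had the most contacts. The last of these had 151 contacts to 3 upstream partners and 158 to 5 downstream partners, and 1 of its 8 loops was found in replicate 1. The 2 hub anchors with 7 replicate 1 loops lay at a level 0 boundary in both lists, whereas of the 13 with 6 replicate 1 loops 3 did and 5 were at a boundary in neither.

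The boundary sat at an edge of the anchor in all these cases, since domains and anchors shared a 10-kb grid. It was the upstream edge at 221 of 327 hub anchors in the replicate 1 list (67.6%, 63.2% over all anchors at a boundary), against 63.0% of all other anchors at a boundary. In the replicate 2 list it was the upstream edge at 221 of 332 (66.6%, 63.4% over all such anchors), against 63.2%. Whether this excess at the upstream edge comes from how either program writes coordinates was not tested, and domain membership was therefore counted in 2 ways.

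When an anchor was counted to the domain that held its middle, 51.2% and 50% of hub loops lay in 1 level 0 domain of the replicate 1 and replicate 2 lists (63.6% and 63.4% over all loops), against 66.5% and 66.4% of loops without a hub anchor. When an anchor within 2 kb of a boundary was counted to the domains on both sides, the shares were 67.8% and 66.6% of hub loops (77.8% and 77.9% over all loops), against 80.2% and 80.5% of loops without a hub anchor. The second count was added after the data had been seen. By the first count, loops of hub anchors at a boundary lay in 1 domain in 29.4% of cases and those of other hub anchors in 61.2% (replicate 1 list), but by the second count these shares were 65.9% (63.7 to 68.1) and 67.1% (65.5 to 68.7). The units differed, with 1720 and 3249 loops in the first count and 1778 and 3419 loop ends at hub anchors in the second. Loops joining 2 hub anchors thus weigh more in the second.

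Since hub loops were longer, the shares were also taken by length. By the second count and the replicate 1 list, 93.6% (92.1 to 94.9) of hub loops under 100 kb lay in 1 level 0 domain, against 95.6% (95.2 to 96.0) of loops without a hub anchor. From 100 to under 200 kb the shares were 76.9% (74.7 to 78.9) and 79.4% (78.4 to 80.4), with overlapping intervals. From 200 to under 400 kb they were 52.0% (49.4 to 54.5) and 60.1% (58.6 to 61.6), and at 400 kb or more 29.4% (25.8 to 33.3) and 35.1% (32.5 to 37.8). In the replicate 2 list the lower share of hub loops held in each class, with 51.6% (49.1 to 54.2) against 59.7% (58.2 to 61.2) from 200 to under 400 kb. Hub loops thus lay in 1 level 0 domain less often than loops of like length without a hub anchor. The intervals did not overlap under 100 kb or from 200 to under 400 kb in either list, and they overlapped in no class of the replicate 2 list. The classes under 200 kb differed by a few percentage points. Loops of anchors of 4 loops on both sides, without a hub anchor, were split by length under the first count only. There, from 200 to under 400 kb in the replicate 1 list, 41.6% (38.9 to 44.4) of them lay in 1 domain. Hub loops stood at 38.1% (35.7 to 40.7) and all loops without a hub anchor at 46.8% (45.2 to 48.3). Intervals of hub loops and loops of anchors of 4 loops overlapped in every class of both lists. The lower share by this count was thus not particular to hub loops.

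**Figure D5:**
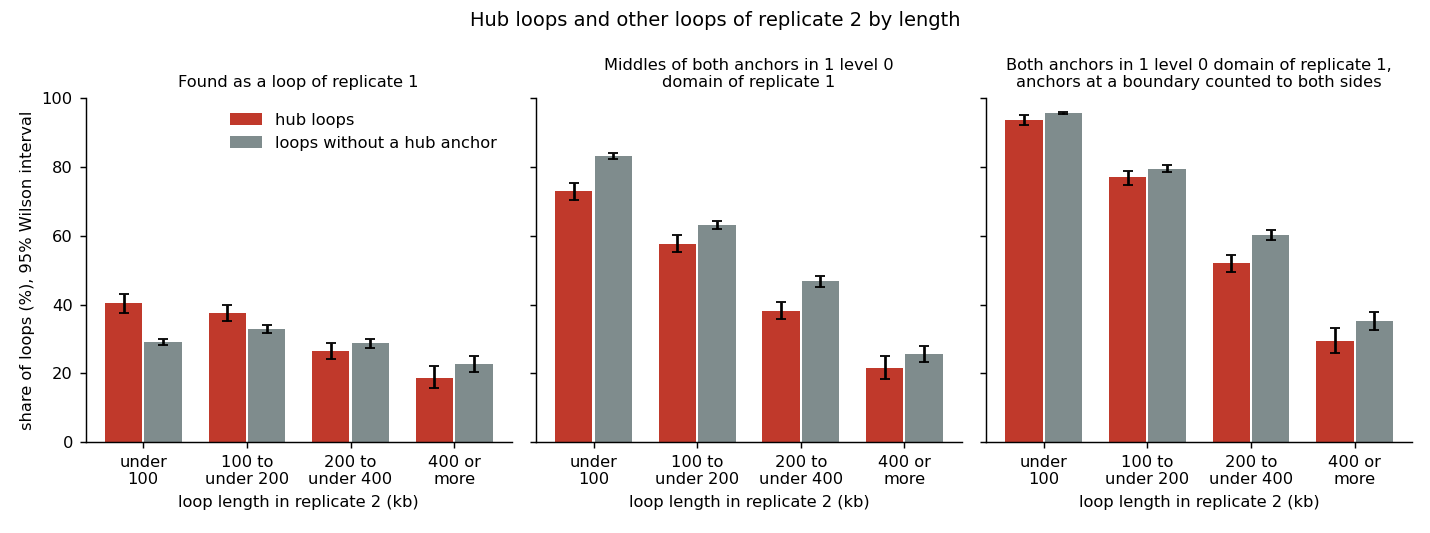
Hub loops (red) and loops without a hub anchor (grey) by length class (horizontal axis, kb): share found in replicate 1, share with both anchor middles in 1 level 0 domain, and the same share with anchors at a boundary counted to both sides (vertical axes, percent, bars are 95% Wilson intervals). Under 100 kb, 40.4% of hub loops and 29.2% of the others were found, and the gap between the groups in 1 domain is narrower in the right panel than in the middle one under 200 kb but wider at 400 kb or more.

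Since every hub anchor has partners on both sides by the rule, those at a boundary were set beside the anchors of 4 loops that also have partners on both sides. With touching partners counted to both sides, 264 of 327 (80.7%, 76.1 to 84.6) had a partner in the domain adjoining upstream and another in the domain adjoining downstream in the replicate 1 list, and 261 of 332 (78.6%, 73.9 to 82.7) in the replicate 2 list. For the anchors of 4 loops the shares were 69.3% (64.4 to 73.9) and 71.3% (66.7 to 75.5), and an anchor with more partners has more chances to meet this count. The level 0 domains that held hub anchors were of ordinary size, with medians of 335 and 330 kb in the replicate 1 and replicate 2 lists, against 330 and 320 kb for all other anchors.

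The partners of hub anchors were themselves less marked than the hub anchors. Of 4359 distinct partners, 527 were hub anchors and 3832 were not, and 927 partners that were not hub anchors (24.2%) had no other loop. Partners that were not hub anchors lay at a level 0 boundary in 21.7% and 22.8% of cases in the replicate 1 and replicate 2 lists, and a replicate 1 anchor overlapped 74.2% of them. These shares lie between those of hub anchors and those of all other anchors.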

How the data were processed

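Loops and domains of 2 replicates were analysed. The authors aligned reads to B73 AGPv4 (Juicer), then called loops with HICCUPS (Juicer tools 1.9.9 for replicate 1, 1.14.08 for replicate 2) and domains with HiTAD, without pooling. The deposited loop lists give whole-number counts of contacts, not normalized, the signal expected from surrounding pixels, and q-values (false discovery rates) as the authors' software computed them. They hold called loops only, so fewer calls in replicate 1 lower every share found there.

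Anchors were matched by exact coordinates, and a shared base (1 bp) was enough to match anchors or loops to the other replicate. Loop length was measured from start to start of its anchors. A boundary counted when within 2 kb of the anchor. Wilson intervals (95%) cover counting error only and treat anchors and loops as independent, which neighbours are not. No test between conditions was possible. Python 3.11.15, pandas 2.3.3, scipy 1.17.1, networkx 3.6.1 and matplotlib 3.10.9 were used, and the counting was checked on lists with known answers.

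The members and lists were chosen with earlier results of these data known. Named anchors were the 10 with the most loops, the leader of each chromosome, the 3 with the most replicate 1 loops, the 3 with the most loops and no replicate 1 anchor, the 3 with the most loops at a boundary in both lists, those of shortest and longest reach, and the one with the most loops to hub anchors, with ties broken by summed contacts. Alternatives were other minimum loop numbers, stricter loops, merged anchors, other overlaps and other boundary definitions. Genes, base composition and sequence at the anchors were not analysed here.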

Additional observations from a re-analysis of the deposited data

Results flagged for a closer look

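The sequence listed as chromosome 0 lies outside the rule for hub anchors but also holds loops in the replicate 2 list. There, 22 of 259 distinct anchors had 5 or more loops in both directions, or 8.49% (95% Wilson interval 5.68 to 12.5), against 3.5% of anchors on chromosomes 1 to 10. The labels describe the reports as leaving out this chromosome, and it was not analysed further. They were drawn to attention because they form a signal in data outside the main measurement, and their cause was not tested.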

How the results depend on the processing

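Of 76 alternative values for 10 results, 37 stayed within the spread between replicates, the interval or the 1.5-fold range, and 39 moved. With the domain list of 1 replicate at a time, the share of hub anchors at a level 0 boundary ranged from 34.2 to 34.7% and that of hub loops in 1 domain from 50 to 51.2%. A minimum of 4 loops gave 2447 hub anchors, of which 92.2% had a replicate 1 anchor, 49.8% both directions in replicate 1 and 29.3% a level 0 boundary. Of their loops, 54.1% lay in 1 domain and 17.2% joined 2 hub anchors, with a median length of 150 kb. A minimum of 6 loops gave 305 hub anchors and, in the same order, 99.3%, 61.0%, 35.9%, 48.1%, 4.58% and 190 kb. Loops of at least 20 contacts left 385 hub anchors, with 63.1% in both directions, 38.1% of loops found, 58% in 1 domain, 4.28% between hub anchors and 140 kb. False discovery rates of at most 0.01 gave 7.85% of loops between hub anchors. Without loops of 40 kb, overlap was 97.9%, both directions 61.0%, boundaries 35.1% and loops in 1 domain 48.4%. Merging touching anchors gave 2002 hub anchors with 97.5% overlapped, 68.1% in both directions, 45.3% at a boundary, 53.5% of loops in 1 domain, 16.1% between hub anchors and 150 kb. Counting 10-kb anchors of replicate 1 only, which leaves fewer loops, gave 68.1% overlapped, 16.3% in both directions and 14.4% of loops found. The shares over all anchors and all loops were not taken with this setting. Those given above used replicate 1 anchors of every size and cannot be set beside these values. Boundaries within 10 kb gave 45.5% and boundaries of any level 58.9%, the lower-left background gave a median ratio of 4.57, and counting anchors at a boundary to both domains, chosen after seeing the data, gave 67.2% of hub loops in 1 domain. Where the construction does not show it, the cause was not tested. No paired analysis was possible because the series has 1 group. Of hub loops under 20 contacts, 9.10% were found in replicate 1, where depth, anchor size and caller version cannot be told apart. A loop missing from a list was not detected, which does not show that it is absent.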
